A study of Mus musculus with 18 samples.

Results

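Csf1r, Csf1, Il34, Kit, Kitl, Flt3 and Pdgfrb were followed in the medial prefrontal cortex of mice fed PLX5622, an inhibitor of the receptor kinase CSF1R. The 7 genes were chosen as the target of the inhibitor, its 2 ligands, and related receptor kinases with the ligand of one of them, and all 7 were found among the 54547 Ensembl gene identifiers of the deposited tables. RNA of C57BL6/J mice at postnatal day 100 was measured in 18 libraries, 9 from animals on a control diet and 9 from animals on chow with PLX5622 at 1200 mg/kg. The treatment text, which is the same on all 18 libraries and names PLX5622 on controls too, gives 21 days of diet, then 44 days of access to 15% ethanol on alternate days, and tissue collection 24 hours after the last of it. What each animal drank is therefore not given library by library, and diet is the contrast the labels allow. No transgene or cell line was named, and each library carries its own animal number. The numbers run from 2 to 11 on the control diet and from 25 to 35 on PLX5622, so that diet cannot be told apart from any handling that followed this numbering.

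CSF1R is a receptor tyrosine kinase on the surface of microglia, the resident macrophages of the brain, which need its signal to survive. Its ligands are colony-stimulating factor 1, encoded by Csf1, and interleukin 34, encoded by Il34, which is made largely by neurons in the forebrain. KIT, FLT3 and PDGFRB belong to the same class of receptor kinases, with a kinase domain split by an insert. KIT binds stem cell factor, encoded by Kitl, and is known in the cortex from neurons as well as from mast cells. FLT3 acts in blood progenitors and dendritic cells. PDGFRB is a marker of pericytes and other mural cells of vessels. Counts of RNA give transcript levels and do not measure kinase activity.

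Between 990136 and 1742680 counts were assigned to genes per library (median 1384979). The label of cortex was checked against marker genes. Glutamatergic cortical markers summed to 1251 ± 49 CPM on the control diet and 1271 ± 48 CPM on PLX5622, and 5 striatal markers to 82.9 ± 7.8 and 86.9 ± 3.9 CPM (SD, n = 9 each). CPM are counts scaled to the library's total over the tested genes after TMM normalization, which corrects for differences in composition. Control 3 stood apart in markers of blood myeloid cells, at 189 CPM, where the highest other control had 19.8 CPM. Results for Csf1r are therefore also given without control 3, a choice made after its values were seen.

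Csf1r fell to 29.4% of its control level. The gene (ENSMUSG00000024621.15) spans bases 61100598 to 61132149 of chromosome 18 on the plus strand (GRCm38, GENCODE M21), and reads were counted per gene, so that no exon or UTR can be named. In controls its level was 46.8 CPM at the lowest, 62.8 at the median and 89.6 at the highest, from 58 to 122 counts per library. With PLX5622 the lowest was 10.9 CPM, the median 21.0 and the highest 23.4, from 16 to 38 counts. Every PLX5622 library thus lay below every control library, and the lowest control stood well clear of the highest PLX5622 library. The mean went from 65.2 ± 15.3 to 19.3 ± 4.1 CPM (SD, n = 9 each), a log2 fold change of -1.77 ± 0.14 (SE) with a 95% interval of -2.05 to -1.48. The adjusted p was 1.6e-12 (edgeR's quasi-likelihood test, Benjamini-Hochberg over 11051 genes). By size of fall Csf1r ranked 9 among all genes tested. Without control 3 the log2 fold change was -1.70.

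Csf1r was the only one of the 7 genes called. All 7 passed the count filter, 1 was lower and 0 were higher at an adjusted p under 0.05, while of all 11051 genes tested 0.353% were lower and 0.0452% higher. At an unadjusted p under 0.05 the count was also 1, where 750 of all 11051 genes tested had such a p. DESeq2 and limma-voom each called Csf1r alone of the 7. Groups that did not overlap, with PLX5622 lower, were seen in 0.199% of all genes tested. The median log2 fold change of the 7 genes was -0.01, against 0.0001 over all genes tested.

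**Figure D1:**
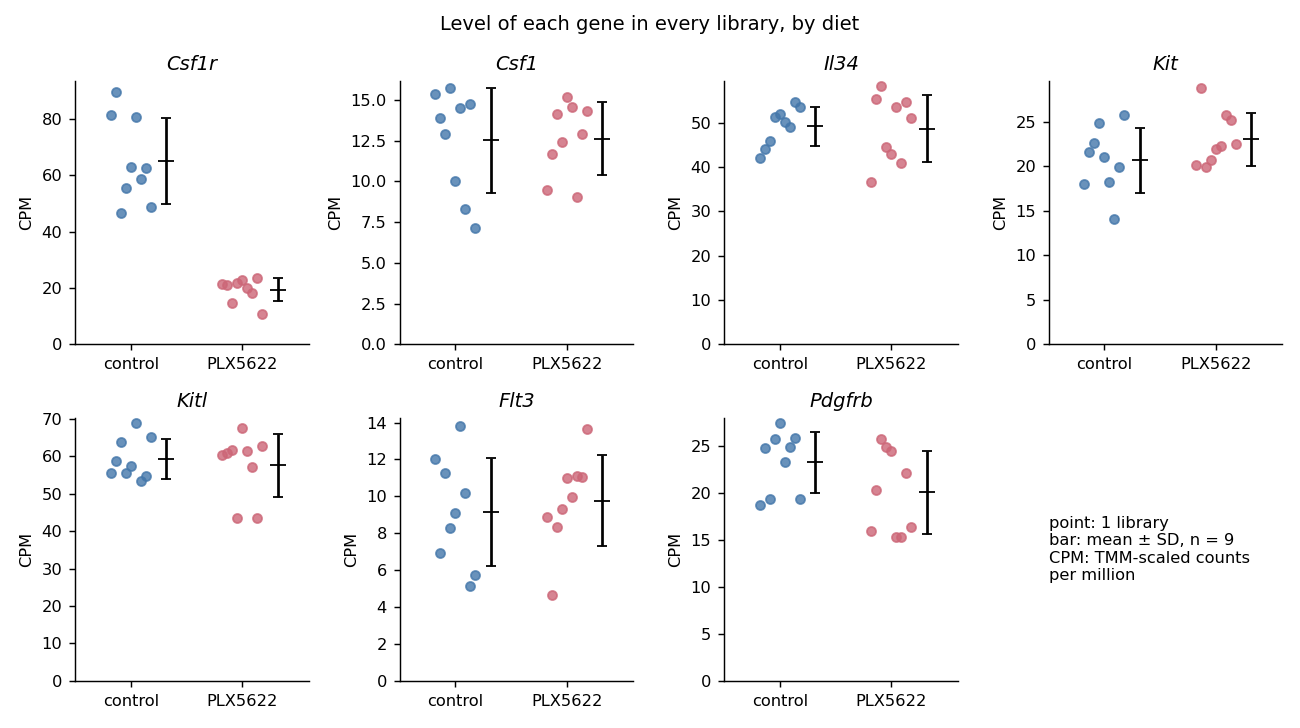
The level of each of the 7 genes (CPM, TMM-scaled) is plotted for every library, with control in blue, PLX5622 in red and bars for the mean ± SD of 9 libraries. The Csf1r points of the diets are apart, from 46.8 CPM upward in controls and up to 23.4 CPM with PLX5622, and the points of the other 6 genes overlap.

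Markers of the cells that carry the receptor were lower beside it. All 17 of the microglial markers that could be tested were called lower, where 0.353% of all genes tested were. Their median was -1.70 (log2), and their log2 fold changes ran from -3.43 to -0.89. Some passed the count filter through the controls, such as Fcrls with a mean of 21.9 counts there and 2.0 with PLX5622. The count of 17 is therefore in part set by the filter. Of the 22 markers on the list Trem2 and Itgam are listed at 0 in every library, and Itgam shares 99.9% of its span with a second gene model on the same strand. The summed level of the list was 551 to 761 CPM in controls and 153 to 269 CPM with PLX5622. Among its abundant genes were Ctss, the protease cathepsin S, at -1.38 ± 0.24 (log2, SE), and the complement genes C1qb and C1qc, at -1.70 ± 0.12 and -1.37 ± 0.16. Of the 17 genes 8 fell by more than Csf1r on the log2 scale and 9 by less. In bulk tissue fewer microglia and less Csf1r RNA per cell cannot be told apart.

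Csf1r was also set against the microglial RNA of the same library. The log2 ratio of Csf1r to the summed markers, in which Csf1r itself does not count, averaged -3.20 ± 0.28 over the 9 controls and -3.28 ± 0.19 over the 9 PLX5622 libraries (SD). The difference of -0.08 ± 0.11 (SE) did not pass (exact permutation test over all 48620 group assignments, two-sided p = 0.486). The fall of Csf1r was thus not distinguished in size from that of the marker sum, within this error. The prior count of 2 was added to Csf1r and not to the sum, which raises the ratio more where counts of Csf1r are low. Those counts were lower with PLX5622, so the difference depends on the prior, at 0.0232 with a prior count of 5. Over 4 other settings it ran from -0.14 to 0.02, with a lowest exact permutation p of 0.257, and its sign was not stable.

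Other cells of the myeloid lineage can carry the receptor too. The 10 markers of border macrophages, which sit in the meninges and around vessels, summed to 20.97 to 37.1 CPM in controls and 2.73 to 10.3 CPM with PLX5622, on 334 and 76 counts, with Siglec1 listed at 0. None passed the count filter. Mrc1, the mannose receptor of these macrophages, had 65 counts in controls and 7 with PLX5622. Blood myeloid markers had 347 and 238 counts, and without control 3 the control mean was 9.48 ± 6.25 CPM (SD, n = 8) beside 19.1 ± 12.3 CPM with PLX5622 (SD, n = 9). The part of these cells in the level of Csf1r was not tested.

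The spread of Csf1r among controls is given as a description, with no test. The variance of its counts among the 9 controls, with depth taken into account, was 4.76 times that of counting alone, where the median over all genes tested was 1.205. With PLX5622 the ratio was 1.27, beside a median of 1.116. Controls 2, 3 and 8 were high, at 81.5, 89.6 and 80.6 CPM, and the other 6 ran from 46.8 to 62.9 CPM. Without control 3 the ratio was 3.77. The ratio grows with the mean count where animals differ, so it gives no order between genes or diets of unlike counts. Among 15 microglial markers with a mean of at least 20 control counts it was 10.2 for Ctss, and 5.00 without control 3. P2ry12, a purinergic receptor, and Cx3cr1, the fractalkine receptor, singled out after their values were seen, had ratios of 0.38 and 0.90. By coefficient of variation, which includes counting error, Csf1r was at 23.4% in controls, below Ctss at 33.5%, C1qa at 28.6% and Ly86 at 28.4%, among others. It was above other markers, such as C1qc at 22.8%, Laptm5 at 19.5%, C1qb at 16.3%, Cx3cr1 at 11.7% and P2ry12 at 8.7%.

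**Figure D2:**
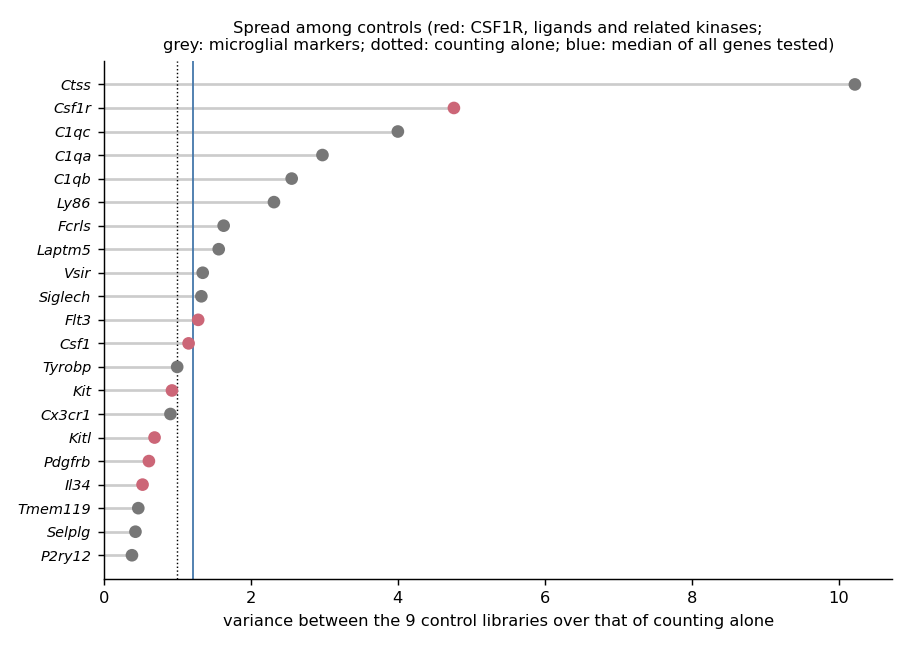
The ratio of the variance between the 9 control libraries to the variance of counting alone is plotted for the 7 genes (red) and for reported microglial markers with a mean of at least 20 counts (grey). The ratio grows with the mean count, so the order of the genes is not read. Csf1r stands at 4.76 and Ctss at 10.2, and the other 6 genes lie between 0.53 and 1.28, near the dotted line of counting alone.

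Whether Csf1r followed microglial RNA from library to library was asked within each diet, among 6 relations of this kind. With PLX5622 Pearson's r between Csf1r and the summed markers was 0.80 (exact permutation p = 0.0087, adjusted 0.052, n = 9) and Spearman's rho 0.80 (exact p = 0.014, adjusted 0.083). Without the 2 libraries farthest from the median r was 0.80. In controls r was 0.57 (exact p = 0.085, adjusted 0.255, n = 9) and rho 0.48 (exact p = 0.194, adjusted 0.50). The control value rested on few libraries, with r at 0.10 without the 2 farthest and 0.08 without control 3 alone. Neither relation passed after adjustment, and no test compared the diets in this.

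**Figure D3:**
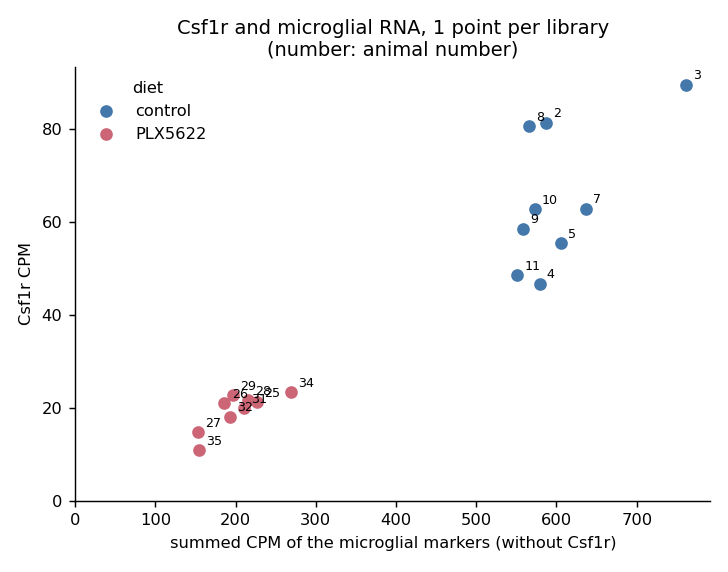
Csf1r (CPM, vertical axis) is plotted against the summed CPM of 22 microglial markers (horizontal axis), 1 point per library with its animal number. The libraries form separate clusters by diet, at 551 to 761 CPM of markers in controls and 153 to 269 CPM with PLX5622. Control 3 is the library farthest to the right.

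The ligands of CSF1R showed no change of the kind seen in the receptor. Il34 (ENSMUSG00000031750.15, minus strand of chromosome 8 from 110741829 to 110805924) had 42.1 CPM in the lowest control, 50.1 at the median and 54.6 in the highest. With PLX5622 it had 36.6, 51.1 and 58.4 CPM. The groups overlapped, with both the lowest and the highest library on PLX5622. The means were 49.2 ± 4.3 and 48.7 ± 7.6 CPM (SD, n = 9 each), and the log2 fold change was -0.01 ± 0.09 (SE, edgeR adjusted p = 0.998). The 95% interval runs from 87.5% to 112.7% of the control level, the second narrowest of the 7 genes on the log2 scale. Markers of neurons, a known source of Il34, summed to 6799 ± 227 CPM on the control diet and 6865 ± 171 CPM on PLX5622 (SD), and none of the 5 tested was called.

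Csf1 (ENSMUSG00000014599.10, minus strand of chromosome 3 from 107741048 to 107760469) was measured with less precision. It had 7.15 CPM in the lowest control, 13.9 at the median and 15.7 in the highest, on 10 to 23 counts per library. With PLX5622 these were 9.04, 12.9 and 15.2 CPM, on 12 to 22 counts, inside the range of the controls. The means were 12.5 ± 3.2 and 12.6 ± 2.2 CPM (SD, n = 9 each), with a log2 fold change of 0.01 ± 0.17 (SE, edgeR adjusted p = 0.998). Its interval of 79.4% to 127.4% of control excludes a fall as large as that of Csf1r, but leaves room for a smaller change in either direction. Against the microglial sum Csf1 gave an r of 0.24 in controls and -0.26 with PLX5622 (n = 9 each, exact permutation p = 0.582 and 0.506, both adjusted 0.699), with rho of 0.43 and -0.17 (exact p = 0.250 and 0.678, adjusted 0.50 and 0.810), and r was 0.79 and -0.34 without the 2 farthest libraries.

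Kit, the receptor of stem cell factor, was at 112.3% of control, with an interval of 93.9% to 134.3%. The gene (ENSMUSG00000005672.12) lies on the plus strand of chromosome 5 from 75574916 to 75656722. Controls had 14.0 CPM at the lowest, 20.98 at the median and 25.7 at the highest, and PLX5622 libraries 19.9, 22.2 and 28.8 CPM. The groups overlapped, though 7 of 9 PLX5622 libraries were above the control mean. The means were 20.7 ± 3.6 and 23.0 ± 3.0 CPM (SD, n = 9 each), with a log2 fold change of 0.17 ± 0.13 (SE, edgeR adjusted p = 0.886), which did not pass. Markers of GABAergic neurons summed to 1103 ± 49 CPM in controls beside 1077 ± 53 CPM with PLX5622 (SD), and none of 8 was called. The 6 mast cell markers held 9 and 6 counts in all, with Fcer1a listed at 0.

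Kitl, the ligand of KIT, was at 97.5% of control, with an interval of 86.7% to 109.7% that was the narrowest of the 7 genes on the log2 scale. It lies on the plus strand of chromosome 10 from 100015630 to 100100416 (ENSMUSG00000019966.18). Controls had 53.5 CPM at the lowest, 57.5 at the median and 69.0 at the highest. PLX5622 libraries had 43.4, 60.8 and 67.5 CPM, and 7 of them lay within the control range, while PLX5622 28 and 34, at 43.4 and 43.6 CPM, lay below every control. The means were 59.2 ± 5.4 and 57.6 ± 8.4 CPM (SD, n = 9 each), with a log2 fold change of -0.04 ± 0.09 (SE, edgeR adjusted p = 0.982). Receptor and ligand of this pair were therefore both without a call.

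Flt3, the receptor of FLT3 ligand, was the gene of lowest count among the 7. It lies on the minus strand of chromosome 5 from 147330741 to 147400489 (ENSMUSG00000042817.15). Controls had 7 to 19 counts, or 5.17 to 13.8 CPM with a median of 9.12. PLX5622 libraries had 6 to 20 counts, or 4.67 to 13.6 CPM with a median of 9.97. The ranges were nearly the same in both diets. The log2 fold change was 0.09 ± 0.20 (SE, edgeR adjusted p = 0.981), and the interval of 80.9% to 140.1% of control was the widest of the 7 on that scale. The gene of its ligand, Flt3l, is listed at 0 in every library, and another gene model covers 97.0% of its span on the same strand, so a count of 0 says nothing of its level.

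Pdgfrb, the receptor of mural cells, had the lowest value after Csf1r but was not called. It lies on the plus strand of chromosome 18 from 61045150 to 61085061 (ENSMUSG00000024620.11) and ends 15537 bases before the start of Csf1r, its neighbour on the same strand. Controls had 18.7 CPM at the lowest, 24.7 at the median and 27.4 at the highest, and PLX5622 libraries 15.3, 20.3 and 25.7 CPM. Of the 9 PLX5622 libraries 4 lay below every control, and the other 5 lay within the range of the controls. The means were 23.2 ± 3.3 and 20.03 ± 4.4 CPM (SD, n = 9 each), with a log2 fold change of -0.22 ± 0.13 (SE, edgeR adjusted p = 0.815) and an interval of 71.4% to 103.2% of control.

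The mural cells that Pdgfrb marks were examined through 12 other genes. They summed to 188 to 261 CPM in controls and 196 to 264 CPM with PLX5622. None of the 7 that could be tested was called, and their median was -0.08 (log2). Of these, 6 had a negative value, the lowest at -0.34. Rgs5, a pericyte regulator of G-protein signalling, was at -0.01 ± 0.09 and Vtn, which encodes vitronectin, at 0.02 ± 0.09 (log2, SE). Myl9 and Atp13a5 were at -0.13 ± 0.13 and -0.15 ± 0.16. Across libraries no relation of Pdgfrb to this sum passed, with r at 0.03 in controls (n = 9, exact permutation p = 0.942, adjusted 0.942) and 0.47 with PLX5622 (n = 9, exact p = 0.204, adjusted 0.408). Spearman's rho was 0.10 (exact p = 0.810, adjusted 0.810) and 0.22 (exact p = 0.581, adjusted 0.810), and r was 0.34 and -0.05 without the 2 farthest libraries.

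The difference between Csf1r and each of the other genes was tested itself, as the log2 ratio of the 2 genes in each library. All 6 ratios fell, and the smallest fall, against Pdgfrb, was -1.46 ± 0.17 (log2, SE). Against the related kinases Kit and Flt3 the ratios fell by 1.83 and 1.77 on the log2 scale, with SE of 0.20 and 0.24. Against the ligands Il34 and Csf1 they fell by 1.65 and 1.71, with SE of 0.20 and 0.19, and against Kitl by 1.63, with an SE of 0.19. In each ratio all 9 PLX5622 libraries were below every control, and the exact permutation p was 4.1e-05, the smallest that 48620 assignments allow (adjusted 4.1e-05 over 6 ratios). Ratios were compared between diets only, since counts of different genes also depend on the length and sequence of their transcripts.

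**Figure D4:**
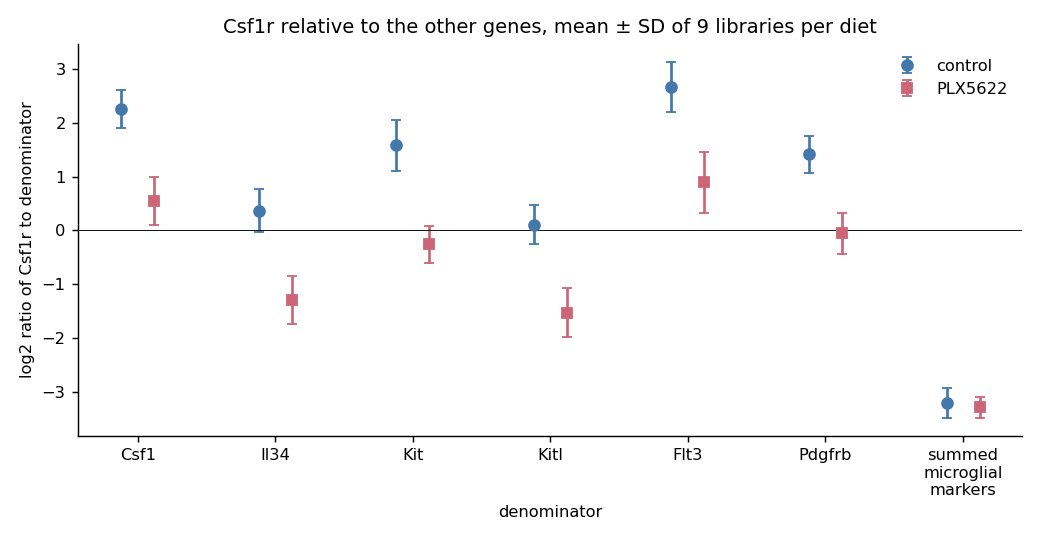
The log2 ratio of Csf1r to each of the other 6 genes and to the sum of microglial markers is plotted as the mean ± SD of 9 libraries, with control as blue circles and PLX5622 as red squares. The ratios to single genes differ by -1.83 to -1.46 (PLX5622 minus control), and the ratio to the markers by -0.08.

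Other genes of the pathway were read from 5 lists holding 56 genes, of which 39 could be tested. In all, 5 were lower and 0 higher, where 0.353% and 0.0452% of all genes tested were, and the median was -0.03 (log2). The relatives of the receptors gave no call. Of 6 genes in this list 5 were tested, with a median of -0.01 (log2). Pdgfb, a ligand of PDGFRB made by endothelial cells, was at -0.19 ± 0.12 and Pdgfa, a ligand of PDGFRA, at 0.06 ± 0.07 (log2, SE). Pdgfra, the receptor of oligodendrocyte precursors, was at 0.01 ± 0.15, with 15.4 ± 3.3 and 15.9 ± 2.7 CPM (SD, n = 9 each). Of 4 other binding partners and sheddases 3 were tested and none was called, with the proteases Adam10 and Adam17 at -0.08 ± 0.06 and -0.15 ± 0.15.

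Adaptors and enzymes that receptor kinases share in many cell types also gave no call. Of 22 genes 21 were tested, and their median was 0.01 (log2). An unadjusted p under 0.05 was seen in 1 of the 21, where 750 of all 11051 genes tested had one. This was Map2k1, the kinase MEK1 above ERK, at 0.16 ± 0.05 (log2, SE, edgeR adjusted p = 0.256). Pik3cb, a catalytic subunit of PI3 kinase, was at -0.17 ± 0.11.

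Of 15 signalling genes used by myeloid cells only 5 passed the count filter. Of these 4 were called lower, where 0.353% of all genes tested were, and the median of the 5 was -0.91 (log2). Tyrobp, the adaptor DAP12, went from 20.5 ± 3.9 to 9.22 ± 2.90 CPM, at -1.16 ± 0.17 (log2, SE, edgeR adjusted p = 1.0e-06), and it also stands among the microglial markers. Inpp5d, the lipid phosphatase SHIP1, went from 22.6 ± 6.0 to 11.7 ± 2.4 CPM, at -0.93 ± 0.16 (adjusted p = 3.3e-05). Neither gene showed any overlap between the diets, where 0.199% of all genes tested had groups apart with PLX5622 lower. Lyn, a kinase of the SRC family, was at -0.91 ± 0.18 (adjusted p = 0.00051), and Rgs10, a regulator of G-protein signalling, at -0.58 ± 0.12 (adjusted p = 0.0056). Pik3cd, a catalytic subunit of PI3 kinase of leukocytes, was at -0.13 ± 0.13 and was not called. The microglial marker sum given above was lower in the same libraries, and its part in these values was not tested.

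Some genes of this list were too low to test and are named here because of their values. They include Vav1, an exchange factor, with 53 counts in controls and 14 with PLX5622. DESeq2, which leaves out fewer genes of low count, called it lower, at -2.0 ± 0.49 (log2, SE, adjusted p = 0.016). In Vav1 8 of the 9 PLX5622 libraries lay below every control. Lower counts that DESeq2 did not call were seen in Pik3cg (37 in controls and 11 with PLX5622), Pik3ap1 (47 and 17) and Ptpn6 (38 and 13). The same held for Plcg2 (62 and 33) and Fes (32 and 21). Others were close between the diets, Syk with 38 counts in controls and 33 with PLX5622, and Dok2 with 16 and 17. Fgr had 7 and 5 counts.

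Among 9 transcription factors of Csf1r and other myeloid genes 5 were tested and 1 was lower, where 0.353% of all genes tested were. The median of the 5 was -0.10 (log2), against 0.0001 over all genes tested. Sall1, a regulator of microglial identity that also stands among the microglial markers, was at -0.89 ± 0.22 (log2, SE, edgeR adjusted p = 0.018). DESeq2 did not call it (-0.91 ± 0.25, adjusted p = 0.061), and without control 5 or control 11 edgeR no longer called it either, with a highest adjusted p of 0.063. Spi1, which encodes PU.1, a direct activator of Csf1r, was too low for the count filter, with 59 and 18 counts, and DESeq2 called it lower at -1.76 ± 0.44 (adjusted p = 0.021). Runx1, with 72 and 32 counts, and Cebpa, with 78 and 56, were also too low for the filter. DESeq2 called neither, at -1.22 ± 0.37 and -0.54 ± 0.29 (log2, SE). Without a count filter edgeR called Runx1 lower (adjusted p = 0.026) and not Cebpa. Irf8 is listed at 0 and lies wholly under another gene model on its strand.

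**Figure D5:**
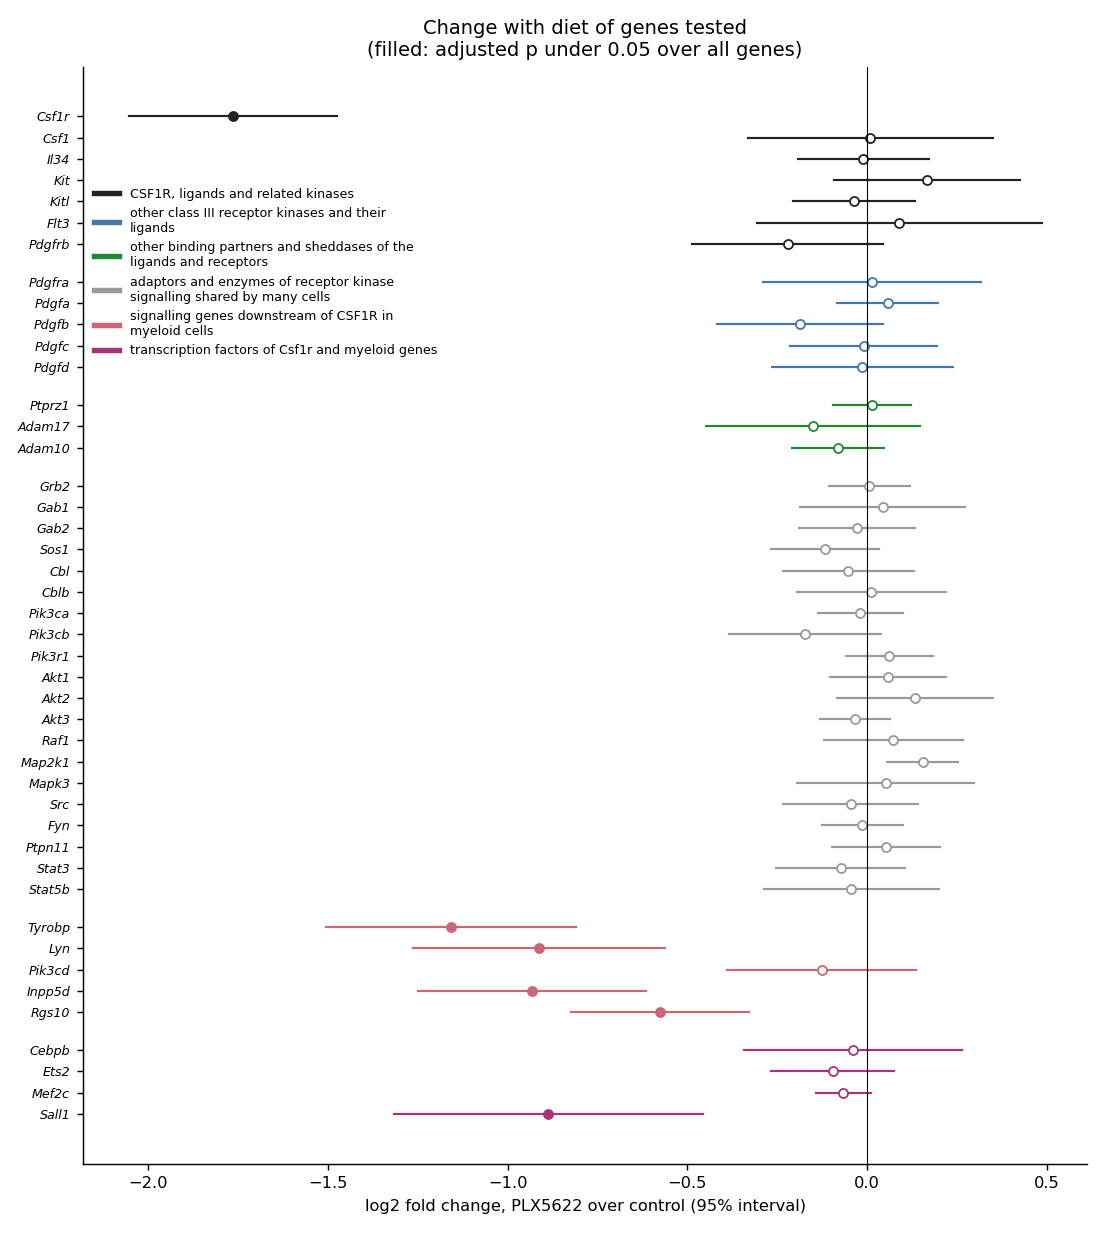
The log2 fold change of PLX5622 over control is plotted for the 7 genes and other tested genes of the pathway that are reported here, with 95% intervals, and filled points mark an adjusted p under 0.05. Csf1r at -1.77, 4 myeloid signalling genes from -1.16 to -0.58 and Sall1 at -0.89 are filled, and the ligands, related kinases and shared adaptors lie around 0.

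The genes whose log2 CPM was most like that of Csf1r over the 18 libraries were microglial. C1qb had a Pearson's r of 0.95 with Csf1r, Laptm5 of 0.95, Fcrls of 0.94, C1qa of 0.92 and C1qc of 0.92, which the difference between the diets largely sets. After each diet mean was subtracted, other genes led, among them Iqsec1 at 0.80 and Ubxn1 at 0.78. The closest to Il34 was then Bnip1 at 0.75, to Kit 2310033P09Rik at 0.73, to Kitl Tmem214 at 0.76 and to Pdgfrb Wrb at 0.77. These are the highest values among all genes tested, over 18 points that share their libraries and depth, and they are given as a description.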

How the data were processed

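The authors deposited raw gene counts for each library in a file of its own. Per the labels' protocols RNA was fragmented, copied with a template-switching oligo, amplified and sequenced as single ends. The submitters' processing notes list mm10 and GRCm38.p6 as builds, and as tools HTSeq 0.11.0, Bowtie2 2.3.4.3, R 3.5.1, DESeq2 1.10.1 and FastQC 0.11.8. What each tool did, the strand setting, the annotation release and the treatment of PCR duplicates were not given in the sources used here. Identifiers were matched without version to GENCODE M21 (53620 of 54547). No pair of libraries agreed within counting error (lowest chi-square per degree of freedom 1.129), and none was merged.

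Counts were fitted with edgeR 4.0.16 in R 4.3.3 over all 18 libraries, with filterByExpr defaults (minimum count 10, minimum total 15), TMM scaling and a robust quasi-likelihood test, adjusted by Benjamini-Hochberg over 11051 genes. Log2 CPM carry a prior count of 2, and the marker sum carries none. Ratios were compared by exact permutation. Alternatives were DESeq2 1.42.0, limma-voom (limma 3.58.1), other scalings, filters and prior counts, thinning, and leaving out each library. A further one took the rank of the animal number within its diet as a covariate. Such a rank cannot adjust for the numbering that differs between the diets. The scripts were tested on simulated data.

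Groups come from the titles. The genes, lists and alternatives were chosen with earlier results of these data known. Named genes are the 7, every called gene of a pathway list or otherwise the 2 of smallest p, up to 4 abundant genes of a marker list, and the closest genes by correlation. Others were chosen after their values were seen, among them Pdgfra, Pik3cd, Spi1, Runx1, Cebpa, Irf8, Flt3l, Mrc1, Vav1, Pik3cg, Pik3ap1, Ptpn6, Plcg2, Fes, Syk, Fgr, Dok2, Ly86, P2ry12 and Cx3cr1. Some genes that meet these rules are not reported here. Whether the libraries come from separate cages or sessions is not given, so p-values measure the spread between these animals.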

Additional observations from a re-analysis of the deposited data

How the results depend on the processing

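Csf1r stayed called lower in all 26 alternatives, at -1.81 to -1.61 (log2), and the 6 ratios of Csf1r to another gene stayed past the threshold in 21 alternatives each. The other 6 genes stayed without a call in each alternative that tested them. Values near 0 changed sign, Il34 to 0.107 after thinning to the smallest library, and, when 1 library was left out, Csf1 between -0.0688 and 0.0621, Il34 between -0.0491 and 0.0424 and Kitl between -0.0631 and 0.0136. In the ratio of Csf1r to the marker sum the difference was 0.0232 with a prior count of 5, added to Csf1r only. With 1 marker left out of the sum it was 0.0242. The r of Pdgfrb with the mural sum under PLX5622 turned to -0.0539 without the 2 libraries farthest from the median. Pathway genes called lower numbered 9 without a count filter and 0 at a mean of at least 50 counts, where 23 could be tested. Over all genes, 39 were lower and 5 higher. With DESeq2 65 were lower, without a count filter 92 lower and 20 higher, at a mean of at least 50 counts 8 lower and 0 higher. With limma-voom 14 were higher and with the rank of the animal number within its diet 17. Without 1 library 2 to 13 were higher. The cause of these changes was not tested, apart from the number of genes that the filters leave. No paired analysis was possible because the animal numbers of the diets do not overlap. Depth limits Flt3 and Csf1, at about 6 to 23 counts per library.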
